A study of Homo sapiens with 28 samples.

Results

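The 7 genes FOXA1, HOXB13, GATA2, GATA3, GRHL2, FOXP1 and ONECUT2 encode transcription factors of the prostate lineage. They were picked by gene symbol from a table of 61815 human genes and not by a rule on their measured values. The genes were picked with earlier results of these data known. They were followed in LNCaP cells, an androgen-responsive line of luminal prostate cancer cells labelled WT, in RNA-Seq of 28 libraries in 8 groups. All cells were kept in medium with charcoal-stripped serum, which lacks most steroid hormones, for 72 hours before treatment. In the first experiment, cells received vehicle (0.1% DMSO), 1 µM Senexin B, 0.1 nM R1881 or both agents for 24 hours, with 3 libraries per group. The Senexin B dose is that of the labels, and the text of the study gives another. In the second, cells received vehicle, 500 nM SNX631, 1 nM R1881 or both agents for 72 hours, with 4 libraries per group. R1881 is a synthetic androgen. Both other agents are small molecules that inhibit the Mediator-associated kinase CDK8 and its paralog CDK19. As the agents differed between experiments in dose and time, values of the inhibitors are given side by side and the compounds were not compared with each other. The study describes its replicates as biological, while the labels do not tie the libraries of a group to separate cultures. The p-values measure the spread between these libraries, and the data describe a single cell line.

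Pioneer transcription factors bind their sites in closed chromatin and open them for other factors. FOXA1, a forkhead protein, GATA2 and HOXB13 are known to shape the chromatin of luminal prostate cells and with it their transcriptional program. GRHL2 is a grainyhead factor that maintains epithelial gene expression, FOXP1 is a forkhead repressor, GATA3 is the luminal GATA factor of several other epithelia, and ONECUT2 is a homeodomain factor known from neuroendocrine and androgen-independent prostate cancer.

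Levels are given as counts per 1000000 counts of the library (CPM), scaled by the trimmed mean of M-values (TMM). Differences are log2 values of edgeR's quasi-likelihood fit with their standard error (SE), and FDR is the edgeR p-value adjusted over all genes tested. A gene is called where FDR is under 0.01 and the fold change is over 1.5, which is 0.585 on the log2 scale. Of the 7 genes, 6 passed the filter on low counts, and GATA3 did not.

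Library totals ran from 9846595 to 15248512 counts, except vehicle replicate 3 at 24 h with 33809419. Of 7 luminal markers, 7 were expressed above the filter on low counts, including KRT8 and KRT18, while 0 of 4 basal markers passed and none of these had more than 5 counts in any library. Of 9 neuroendocrine markers, SYP and ENO2 passed, and INSM1 and NEUROD1 were at 0 counts. ENO2 had group means from 20.9 to 42.7 CPM and SYP at most 1.01 CPM, so the neuroendocrine sum below is mostly that of ENO2. Of 8 stromal, endothelial or immune markers, VIM, COL1A1, COL3A1 and CD68 passed, whereas DCN and PECAM1 had at most 2 counts. The summed marker levels moved with R1881: at 24 h the luminal sum ranged from 3450 to 3490 CPM in vehicle and from 4480 to 4510 CPM with R1881, the neuroendocrine sum from 40.3 to 43.2 CPM and from 18.9 to 23.5 CPM, and the stromal sum from 98.9 to 107 CPM and from 61.6 to 66.6 CPM. The luminal sum was lower with inhibitor, from 2980 to 3040 CPM with Senexin B at 24 h, and at 72 h from 2540 to 2640 CPM with SNX631 against 2870 to 2890 CPM in vehicle and from 4460 to 4480 CPM with both agents against 4720 to 4760 CPM with R1881. The stromal sum was from 111 to 115 CPM with Senexin B. Whether these shifts have a part in the R1881 and inhibitor results below was not tested, and in bulk RNA a change in the share of cells cannot be told apart from a change in RNA per cell.

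Per kilobase of exon, the mean over the 28 libraries was 132 CPM per kb for FOXA1, 104 for HOXB13, 59.2 for GATA2 and 32.2 for GRHL2. These are ranks 257, 336, 697 and 1506 of 15890 genes, so these 4 genes were among the most highly expressed 10% of genes. ONECUT2 had 2.81 CPM per kb and FOXP1 1.07 CPM per kb, but the annotated exons of these genes add up to 16.2 and 36.7 kb, which lowers a value per length where most of that length is not in use. GATA3 had 0 to 4 counts per library and was at 0 in 15 of 28 libraries. The overlapping antisense transcript GATA3-AS1 had 0 counts. Libraries of a group were close together: the coefficient of variation of the 6 tested genes ran from 0.588% to 12.6% with a median of 2.34%.

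FOXA1 (ENSG00000129514.8, chromosome 14, 37589984 to 37596059 of GRCh38, minus strand) is the forkhead pioneer of the set, and GATA2 (ENSG00000179348.13, chromosome 3, 128479427 to 128493185, minus strand) its GATA partner. Both fell with androgen but went opposite ways when inhibitor was added to it, so sequence upstream of their RefSeq starts is shown. The FOXA1 stretch and the second GATA2 stretch lie inside the gene spans given above, upstream of a start within the gene. The FOXA1 stretch stops short of the start, and the bases nearest to the start were neither shown nor searched. The sequences are from RefSeq on GRCh38.p14, run 5′ to 3′ on the gene's strand, and cover chr14:37595349-37595499 for FOXA1, and chr3:128493202-128493451 and chr3:128488531-128488780 for the first and second of the annotated GATA2 starts. Capitals mark the motif found.
FOXA1: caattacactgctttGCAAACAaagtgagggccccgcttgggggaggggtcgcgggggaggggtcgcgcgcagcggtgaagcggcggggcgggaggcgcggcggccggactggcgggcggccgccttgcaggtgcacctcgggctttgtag
GATA2, first start: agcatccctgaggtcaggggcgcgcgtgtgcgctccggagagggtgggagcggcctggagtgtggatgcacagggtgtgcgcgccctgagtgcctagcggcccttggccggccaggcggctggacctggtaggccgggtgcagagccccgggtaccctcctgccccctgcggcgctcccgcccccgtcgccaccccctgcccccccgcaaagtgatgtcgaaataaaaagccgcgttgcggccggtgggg
GATA2, second start: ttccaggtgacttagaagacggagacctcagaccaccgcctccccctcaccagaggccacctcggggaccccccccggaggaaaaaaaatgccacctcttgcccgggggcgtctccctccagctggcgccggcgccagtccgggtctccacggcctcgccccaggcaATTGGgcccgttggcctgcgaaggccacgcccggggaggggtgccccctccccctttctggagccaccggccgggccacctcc
Motifs were searched on both strands. The forkhead motif was TGTTTAC or, in its other common form that forkhead proteins also bind, TGTTTGC. The GATA motif was AGATAA or the like site that begins with another base, TGATAA. The motif of HOXB13 was CCAATAAA, which overlaps the CCAAT box in its letters. The grainyhead motif was AACCGGTT, and that of ONECUT factors ATCAAT, with the variant that differs from it in the middle also taken, ATCGAT. The TATA box was TATAAA, and the last motif was the CCAAT box itself. The FOXA1 stretch held 1 forkhead match on the reverse strand, 235 to 229 bases before the start, and 3.79% of 35116 promoters held such a match anywhere in the same window. The second GATA2 stretch held 1 CCAAT box on the reverse strand, 83 to 79 bases before the start, and 32.0% of promoters held one within the same window, whereas the first GATA2 stretch held no match. Promoter sequence was at hand for 5 of the 7 genes.

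FOXA1 was the most abundant of the 7 transcripts and was lowered by R1881 and by each inhibitor. In the 24 h experiment it stood at 633, 607 and 632 CPM in vehicle, 558, 561 and 552 CPM with Senexin B, 464, 448 and 456 CPM with R1881, and 396, 394 and 403 CPM with both. The 4 groups did not overlap, and each agent gave a step down with or without the other. In the 72 h experiment the values were 650, 657, 634 and 637 CPM in vehicle, 548, 542, 551 and 550 CPM with SNX631, 508, 531, 513 and 520 CPM with R1881, and 431, 435, 438 and 413 CPM with both. Again the 4 groups were apart and in the same order. FOXA1 fell by 27.1% with R1881 at 24 h (log2 difference -0.46, SE 0.03, edgeR FDR = 1.3e-14) and by 20% at 72 h (log2 difference -0.32, SE 0.022, edgeR FDR = 1.16e-15). Senexin B lowered it by a log2 difference of -0.17 (edgeR FDR = 3.78e-05) without androgen and -0.20 (edgeR FDR = 6.86e-06) with it, and SNX631 by -0.24 (edgeR FDR = 1.93e-11) and -0.28 (edgeR FDR = 4.15e-13). The interaction of R1881 with inhibitor did not pass the test, at -0.03 with a 95% interval from -0.12 to 0.05 for Senexin B and -0.04 with an interval from -0.10 to 0.02 for SNX631. FOXA1 thus did not reach the fold limit in any comparison. TTC6, whose gene overlaps FOXA1 on the opposite strand, was at 39.6 CPM with R1881 and 42.4 CPM in vehicle at 24 h, and its difference of -0.11 did not pass (edgeR FDR = 0.0845). Its differences with each inhibitor were also below 0, and that of SNX631 with R1881 passed (-0.20, edgeR FDR = 0.00331).

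**Figure D1:**
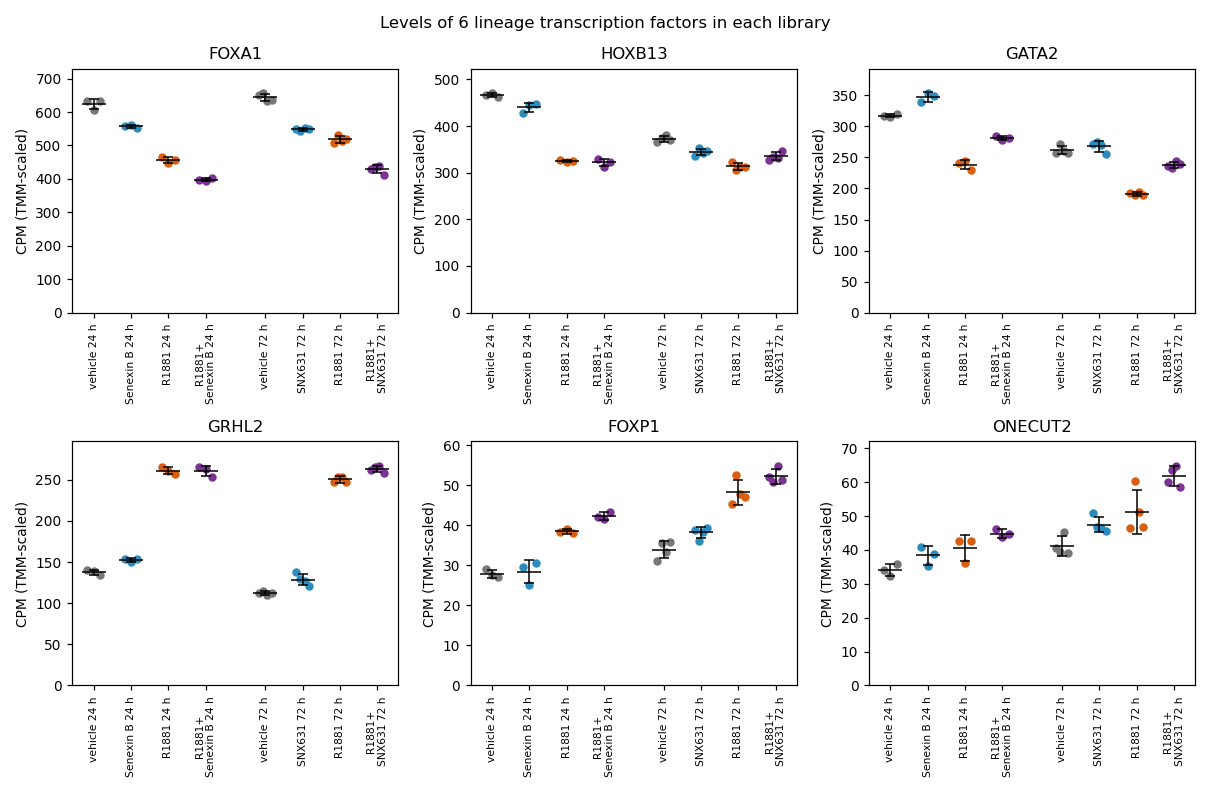
Level of each tested factor in every library, as TMM-scaled CPM on linear axes from 0, in the 8 groups (grey, vehicle; blue, inhibitor; orange, R1881; purple, both). Points are libraries and the black marks are the mean ± SD of 3 libraries at 24 h and 4 at 72 h. FOXA1 steps down with each agent, GRHL2 rises with R1881 (from 138 to 261 CPM at 24 h), and GATA2 with R1881 is higher where inhibitor was present.

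HOXB13 (ENSG00000159184.8, chromosome 17, 48724763 to 48729178, minus strand), the homeobox factor of the prostate, fell with R1881, more at 24 h than at 72 h. In the 24 h experiment it was at 467, 471 and 462 CPM in vehicle and 327, 323 and 325 CPM with R1881, and in the 72 h experiment at 366, 375, 381 and 370 CPM in vehicle and 324, 305, 312 and 313 CPM with R1881. The vehicle groups differed between the experiments, whereas the R1881 groups overlapped. The log2 difference was -0.53 at 24 h (SE 0.0306, edgeR FDR = 5.23e-16) and -0.26 at 72 h (SE 0.025, edgeR FDR = 1.73e-11). The effect at 72 h minus that at 24 h was 0.27 (SE 0.0377, edgeR FDR = 5.17e-07), a test in which time, R1881 dose and experiment cannot be told apart. With library totals in place of TMM factors the difference at 24 h was -0.60, past the fold limit.

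Without androgen, SNX631 lowered HOXB13 by the test and Senexin B did not pass. It was at 429, 445 and 447 CPM with Senexin B (log2 difference -0.09, edgeR FDR = 0.0228, not past the limit, but past it with library totals at -0.125, edgeR FDR = 0.00094) and at 336, 353, 342 and 346 CPM with SNX631 (-0.12, edgeR FDR = 0.000146). In the presence of R1881, Senexin B gave 329, 313 and 324 CPM, which overlapped R1881 alone (-0.01, 95% interval from -0.08 to 0.05). SNX631 with R1881 gave 327, 333, 332 and 347 CPM, each above the R1881 libraries, with a log2 difference of 0.08 (edgeR FDR = 0.00622). The difference no longer passed with library totals (0.05) or when any of 5 libraries was left out, namely R1881 replicates 2, 3 and 4 and R1881 with SNX631 replicates 3 and 4 (0.07, 0.08, 0.09, 0.09 and 0.06). The androgen effect on HOXB13 in the presence of SNX631 was -0.05 (edgeR FDR = 0.0506), or -0.16 with library totals, where it passed (edgeR FDR = 2.88e-07), and the interaction was 0.20 (SE 0.0351, edgeR FDR = 5.68e-05). PRAC2, which lies 5 bases from HOXB13 on the opposite strand, was at 7.33 CPM with R1881 and 8.28 CPM in vehicle at 24 h and did not pass (edgeR FDR = 0.122). It passed for R1881 with Senexin B present (-0.49, edgeR FDR = 0.00251) and for Senexin B with R1881 (-0.52, edgeR FDR = 0.00346). In the other comparisons PRAC2 did not pass.

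GATA2 also fell with R1881, but inhibitor raised it in the presence of androgen. It was at 317, 315 and 320 CPM in vehicle, 241, 245 and 230 CPM with R1881 and 284, 278 and 282 CPM with R1881 and Senexin B at 24 h. At 72 h it was at 258, 271, 260 and 258 CPM in vehicle, 193, 189, 195 and 189 CPM with R1881 and 236, 233, 245 and 239 CPM with R1881 and SNX631. In both experiments the libraries with both agents lay between R1881 and vehicle, apart from each. The androgen effect was -0.41 (SE 0.0324, edgeR FDR = 9.19e-13) at 24 h and -0.46 (SE 0.0272, edgeR FDR = 1.47e-17) at 72 h, and the inhibitor effect with R1881 was 0.24 (SE 0.0333, edgeR FDR = 1.49e-06) for Senexin B and 0.30 (SE 0.0271, edgeR FDR = 8.72e-12) for SNX631. Without androgen, GATA2 was at 339, 354 and 349 CPM with Senexin B (0.13, edgeR FDR = 0.0017, but 0.09 and 0.0224 with library totals) and at 272, 275, 270 and 255 CPM with SNX631, which overlapped vehicle (0.03, 95% interval from -0.02 to 0.08). The interaction passed for SNX631 at 0.27 (SE 0.0375, edgeR FDR = 1.28e-06) and did not for Senexin B at 0.11 (95% interval from 0.02 to 0.20, edgeR FDR = 0.199).

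GATA2-AS1, transcribed from the opposite strand of the GATA2 locus, fell with both inhibitors. Its mean was 117 CPM in vehicle and 97.8 CPM with Senexin B at 24 h (log2 difference -0.26, edgeR FDR = 3.74e-06), and 116 CPM and 92.9 CPM with SNX631 at 72 h (-0.33, edgeR FDR = 4.84e-10). With R1881 present it fell by 0.16 with Senexin B (edgeR FDR = 0.00515) and by 0.15 with SNX631 (edgeR FDR = 0.000325) on the log2 scale, where GATA2 rose. R1881 alone lowered GATA2-AS1 at 24 h, as it did GATA2 (-0.18, edgeR FDR = 0.000326), and did not pass at 72 h (-0.09, edgeR FDR = 0.0231). The interaction with SNX631 had the sign of that of GATA2 but did not pass (0.18, edgeR FDR = 0.0116). The libraries were made with a directional kit, but whether counting used the strand is not given in the sources used here, and without it reads of the 2 transcripts cannot be told apart where they overlap.

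GRHL2 (ENSG00000083307.12, chromosome 8, 101492432 to 101669726, plus strand) was the 1 factor of the set past the fold limit, and it rose with R1881. It was at 140, 139 and 134 CPM in vehicle and 266, 261 and 257 CPM with R1881 at 24 h, and at 113, 115, 110 and 112 CPM in vehicle and 247, 254, 254 and 247 CPM with R1881 at 72 h. The rise was 1.90-fold at 24 h (log2 difference 0.92, SE 0.0337, edgeR FDR = 2.51e-21) and 2.21-fold at 72 h (1.15, SE 0.0304, edgeR FDR = 7.39e-29). The effect at 72 h minus that at 24 h was 0.23 (SE 0.0443, edgeR FDR = 0.000201). Without androgen the inhibitors raised GRHL2 by less, to 154, 150 and 154 CPM with Senexin B (0.15, edgeR FDR = 0.000994) and to 138, 129, 127 and 121 CPM with SNX631 (0.18, edgeR FDR = 1.54e-05). The difference with Senexin B did not pass without vehicle replicate 3 at 24 h, the deepest library (0.13, edgeR FDR = 0.0206), or with library totals (0.11). With R1881 present, GRHL2 was at 266, 263 and 254 CPM with Senexin B and 262, 266, 267 and 258 CPM with SNX631. Those differences from R1881 alone were 0.00 (95% interval from -0.07 to 0.06) and 0.06 (95% interval from 0.01 to 0.11), and neither passed. The interaction was -0.15 with Senexin B (edgeR FDR = 0.0655) and -0.13 with SNX631 (edgeR FDR = 0.0429). AP001207.3, antisense within GRHL2, rose too, from 5.71 to 9.58 CPM at 24 h and from 3.38 to 8.25 CPM at 72 h (log2 differences 0.73 and 1.27, both called).

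Among the genes with the pattern most like that of GRHL2 over the 8 group means, centred within each experiment, was GRWD1 (Pearson r = 0.9978). Such a likeness is common here, since 2049 of 11243 genes (18.2%) had r over 0.9, and the 8 points share library sets and the 2 experiments. Among all pairs of the tested factors, the highest r over the same 8 means was 0.971, for GRHL2 and FOXP1. The lowest was -0.954, for FOXA1 and FOXP1. With FOXP1, 2228 of 11243 genes (19.8%) had r over 0.9.

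FOXP1 (ENSG00000114861.24, chromosome 3, 70952817 to 71583993, minus strand) rose with R1881, against the direction of the other forkhead factor, FOXA1. It was at 29, 27.5 and 27.0 CPM in vehicle and 38.3, 39.0 and 38.0 CPM with R1881 at 24 h, and at 31.0, 35.5, 33.4 and 35.7 CPM in vehicle and 45.4, 52.6, 47.8 and 47.1 CPM with R1881 at 72 h. The groups did not overlap at either time, with log2 differences of 0.47 (SE 0.0619, edgeR FDR = 7.9e-08) and 0.50 (SE 0.0528, edgeR FDR = 1.4e-10). Senexin B gave 29.6, 25.1 and 30.6 CPM without androgen and 42.0, 41.5 and 43.4 CPM with it, and SNX631 38.9, 36.1, 38.4 and 39.3 CPM and 52.0, 50.8, 54.8 and 51.2 CPM. The inhibitors did not pass for FOXP1 without androgen (0.04, edgeR FDR = 0.642, and 0.16, edgeR FDR = 0.017) or with it (0.14, edgeR FDR = 0.0865, and 0.10, edgeR FDR = 0.0891). The FOXP1 values are uncertain because the annotated gene AC097634.4 overlaps it on the same strand and counting can split their reads. AC097634.4 was at 14.5 CPM in vehicle and 19.4 CPM with R1881 at 72 h (0.41, edgeR FDR = 2.84e-06) and did not pass at 24 h (0.20, edgeR FDR = 0.0359).

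ONECUT2 (ENSG00000119547.6, chromosome 18, 57435685 to 57491297, plus strand) rose with R1881 by the smallest amount of the 6 factors at 24 h. It was at 34, 32.3 and 35.7 CPM in vehicle and 42.7, 36.0 and 42.6 CPM with R1881 at 24 h, and at 40.7, 39.3, 45.4 and 39.1 CPM in vehicle and 46.4, 60.3, 51.3 and 46.9 CPM with R1881 at 72 h. The groups did not overlap, but the highest vehicle library and the lowest R1881 library were close at each time. The log2 difference was 0.23 at 24 h (SE 0.0644, edgeR FDR = 0.00286) and 0.32 at 72 h (SE 0.0622, edgeR FDR = 2.64e-05). The 24 h difference did not pass with library totals (0.15) and when vehicle replicate 2, R1881 replicate 1 or R1881 replicate 3 was left out (0.20 each). SNX631 gave 50.8, 46.9, 46.4 and 45.7 CPM without androgen (0.20, edgeR FDR = 0.00814), and 60.1, 63.7, 64.8 and 58.5 CPM with R1881 (0.25, edgeR FDR = 0.00036). The difference without androgen did not pass with library totals (0.18) and in 9 of the 16 fits that leave out a library, namely vehicle replicates 1, 2 and 4, SNX631 replicates 1, 2 and 3, R1881 replicate 3 and replicates 1 and 3 with both agents, with differences from 0.17 to 0.22. Senexin B gave 41.0, 35.3 and 38.9 CPM without androgen and 46.1, 43.7 and 44.7 CPM with it, and neither difference passed (edgeR FDR = 0.0479 and 0.0831). FECH, the heme synthesis enzyme whose gene is next to ONECUT2, rose from 191 to 370 CPM with R1881 at 24 h (log2 difference 0.95).

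All 6 factors responded to androgen by the test, and the share of them called was near that of all genes. The shares of all genes given here were not matched to the factors for expression level. With R1881, FDR was under 0.01 for 6 of 6 factors at 24 h and at 72 h, where 48.4% and 52.2% of all genes tested passed, and 1 of 6 was called, where 19.0% and 19.8% were. In 6 of 6 the R1881 and vehicle libraries did not overlap at each time, as in 62.0% and 54.8% of genes. The median absolute log2 difference was 0.464 over the factors and 0.262 over all genes at 24 h, and 0.39 and 0.255 at 72 h. By direction, GRHL2, FOXP1 and ONECUT2 rose while FOXA1, HOXB13 and GATA2 fell at both times. With Senexin B present, the androgen effect again passed in 6 of 6 (47.5% of genes) and was called in 1 (18.9%), and in 6 of 6 the groups did not overlap (62.2%). The ONECUT2 effect there, 0.22 (edgeR FDR = 0.00467), did not pass without Senexin B replicate 2 or 3 or without replicate 1 or 3 of both agents (from 0.15 to 0.22). FOXP1, at a log2 difference of 0.57, came over the fold limit there without Senexin B replicate 1 (0.60) or replicate 3 (0.62). With SNX631 present it passed in 5 of 6 (57.3%), HOXB13 being the exception with TMM factors but not with library totals (-0.16), and was called in 1 (22.0%), and in 5 of 6 the groups did not overlap (57.9%).

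The inhibitors changed fewer of these factors. Senexin B against vehicle passed in 3 of 6 (25.1% of genes) and SNX631 in 4 of 6 (26.9%), and 0 of 6 were called (3.79% and 4.77% of genes). The groups did not overlap in 4 of 6 and 5 of 6 (45.6% and 32.9% of genes). In the presence of R1881, 2 of 6 passed with Senexin B (22.7%) and 4 of 6 with SNX631 (33.1%), 0 were called (3.12% and 4.12%), and the groups did not overlap in 4 of 6 for each (42.1% and 37.9%). FOXA1 was lower with inhibitor in each of these 4 comparisons, which have no library in common, though those of the same experiment come from the same fit. The interaction passed in 0 of 6 factors for Senexin B (2.09% of genes) and in 2 of 6 for SNX631, GATA2 and HOXB13 (7.09%), with 0 called for either (0.577% and 1.19%). The androgen effect at 72 h differed from that at 24 h in 3 of 6, HOXB13, GRHL2 and FOXA1 (7.54% of genes, with 0 of 6 and 1.88% of genes called), and for FOXA1 the difference of 0.14 (edgeR FDR = 0.00437) did not pass with library totals (0.11) or in 8 of 28 fits that leave out a library. Those fits left out vehicle replicates 1 and 3 and R1881 replicates 2 and 3 at 24 h, and vehicle replicates 3 and 4 and R1881 replicates 2 and 4 at 72 h, with differences from 0.12 to 0.13.

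**Figure D2:**
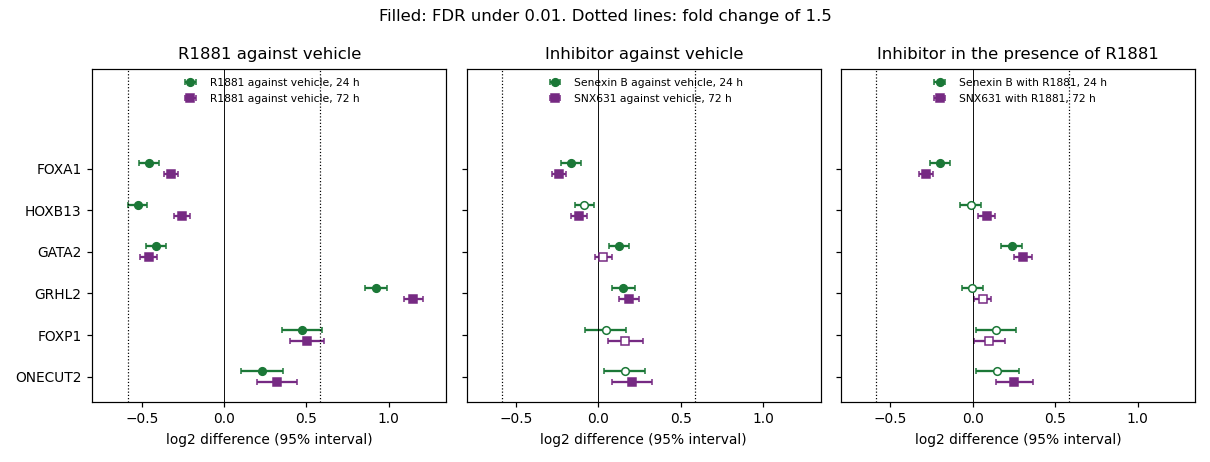
Log2 differences of the 6 tested factors with 95% intervals, for R1881 against vehicle, inhibitor against vehicle and inhibitor with R1881 (green circles, 24 h experiment; purple squares, 72 h experiment; filled, edgeR FDR under 0.01). GRHL2, at 0.92 and 1.15, is past the dotted line of the 1.5-fold limit with R1881, and FOXA1 lies below 0 in all 3 panels.

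**Figure D3:**
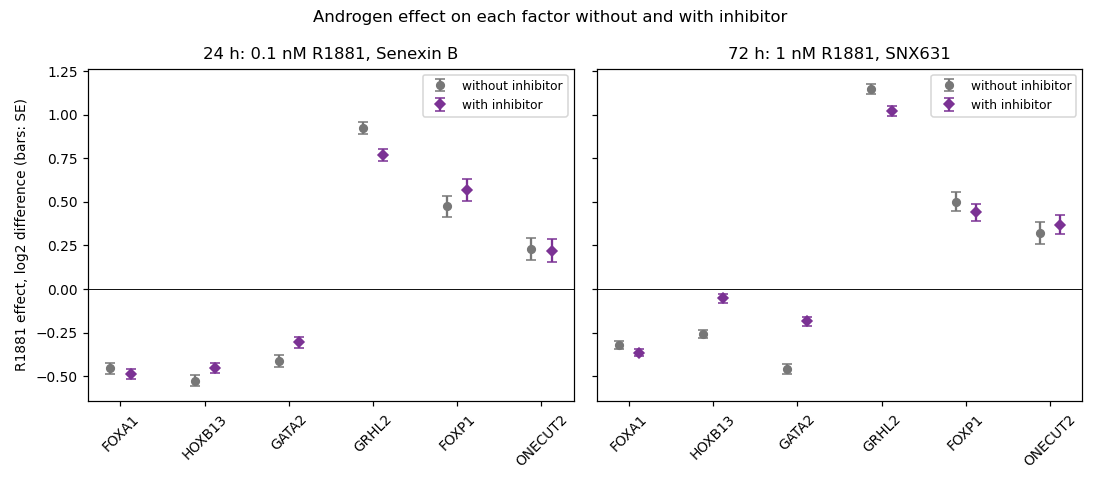
Log2 effect of R1881 on each factor without (grey circles) and with inhibitor (purple diamonds), bars giving the SE. At 72 h the effect on HOXB13 was -0.26 without SNX631 and -0.05 with it, and on GATA2 -0.46 and -0.18.

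Of 16 paralogs of these factors in the table, 6 passed the filter at 24 h and 5 at 72 h, and the other 10, such as FOXA2, GATA4 and ONECUT1, had at most 9 counts in a library. R1881 called 2 lower and 0 higher at 24 h, against 9.19% and 9.81% of all genes, and 1 lower and 0 higher at 72 h, against 10.1% and 9.7%. The median log2 difference of the tested paralogs was -0.297 at 24 h and -0.375 at 72 h, and that of all genes -0.0156 and -0.0139. HOXC13, a posterior HOX gene like HOXB13, fell from 30.2 to 12.7 CPM at 24 h and from 24.0 to 12.3 CPM at 72 h (log2 differences -1.24 and -0.96, edgeR FDR = 8.41e-16 and 3.75e-13). FOXP3, a forkhead paralog of FOXP1, was called lower at 24 h from a low level (2.29 to 1.23 CPM), a call lost without vehicle replicate 2 or R1881 replicate 1 or 2 (from -0.85 to -0.76). GRHL1, a paralog of GRHL2, was at 10.2 CPM with R1881 and 9.85 CPM in vehicle at 24 h (0.05, edgeR FDR = 0.704). It fell with Senexin B to 6.62 CPM (-0.59, edgeR FDR = 8.77e-05), a call at the fold limit that was lost with the replicate block (-0.58), DESeq2 size factors, the DESeq2 Wald test and 1 fit of all libraries, and in 8 of 12 fits that leave out a library (from -0.58 to -0.52; vehicle replicate 2, Senexin B replicates 1 and 3, R1881 replicates 1, 2 and 3, and replicates 1 and 2 with both agents).

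Several other transcription factors of prostate epithelium passed the fold limit with androgen. Of 23 in the table, 17 were tested at 24 h, where R1881 called 7 higher and 2 lower (9.81% and 9.19% of all genes), and 18 at 72 h, where it called 7 higher and 4 lower (9.7% and 10.1% of all genes). The median log2 difference over the list was -0.072 at 24 h and 0.04 at 72 h. Of those called higher, 6 are described here. KLF4 and KLF5, Krüppel-like factors of epithelial differentiation, rose by 1.84 and 1.37 on the log2 scale at 24 h and by 2.98 and 1.89 at 72 h. SPDEF and EHF, epithelial ETS factors, rose by 1.12 each at 24 h and by 1.74 and 1.15 at 72 h. SOX9 rose by 1.09 and 1.50, and CREB3L4, a factor of the secretory pathway, by 0.87 and 1.16. ELF3, another epithelial ETS factor, fell by 1.16 and 1.03, and TRPS1, a GATA-type repressor, fell by 1.21 and 1.36. NR2F1 and POU3F2 were called lower at 72 h from 1.1 and 1.18 CPM in vehicle.

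Of these genes, Senexin B called 2 of 17 and SNX631 2 of 18 against vehicle, where 3.79% and 4.77% of all genes were called. Senexin B lowered KLF5 from 9.02 to 4.86 CPM (log2 difference -0.89) and raised KLF4 from 1.98 to 3.27 CPM (0.63). The KLF4 call was lost with library totals, no filter, the DESeq2 Wald test and the replicate block (0.62, edgeR FDR = 0.0117), and in 8 of 12 fits that leave out a library (from 0.48 to 0.82), namely those without vehicle replicate 1, 2 or 3, Senexin B replicates 2 and 3, R1881 replicate 1, and replicates 2 and 3 with both agents. SNX631 lowered KLF5 from 11.5 to 5.83 CPM (-0.98) and raised TFAP2A from 11.4 to 18.9 CPM (0.73). In the presence of R1881, each inhibitor called KLF5 and SOX4 lower and SOX9 higher, which is 3 of 17 and 3 of 18 where 3.12% and 4.12% of all genes were called. SOX4, singled out after its values were seen, was at 299 CPM with R1881 and 182 CPM with R1881 and Senexin B at 24 h, and at 450 CPM with R1881 and 293 CPM with R1881 and SNX631 at 72 h. Its interaction was -0.64 for Senexin B (edgeR FDR = 4.39e-11) and -0.93 for SNX631 (edgeR FDR = 3.11e-19). SOX9 rose with inhibitor from 6.40 to 15.1 CPM at 24 h and from 9.13 to 16.5 CPM at 72 h in the presence of R1881, with interactions of 1.53 (edgeR FDR = 9.34e-05) and 1.37 (edgeR FDR = 2.99e-06). The interaction was also called for TFAP2A with SNX631, at -1.18 (edgeR FDR = 2.94e-09).

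**Figure D4:**
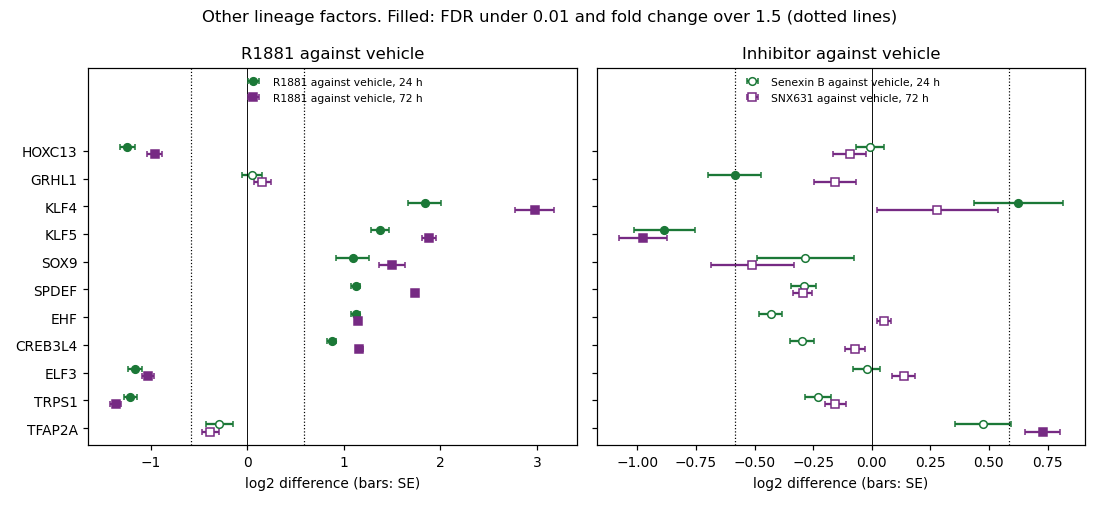
Log2 differences with SE of 11 of the paralogs and other lineage factors called in an R1881 or inhibitor comparison against vehicle (green circles, 24 h experiment; purple squares, 72 h experiment; filled, called). KLF5 rises with R1881 (1.37 and 1.89) and is lower with each inhibitor (-0.89 and -0.98).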

How the data were processed

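Total RNA of LNCaP cells was sequenced from 28 libraries made with a directional kit. The authors deposited expected counts per gene, of which 16.9% of the values above 0 were fractional. Per the submitters' processing notes, FastQC, cutadapt 2.8, STAR 2.7.2b and featureCounts of Subread 2.0.3 were used with GRCh38.p13 and GRCm39. The annotation release and the use of strand are not given in the sources used here. Groups came from the sample titles. The genes, lists and tests were chosen with earlier results of these data known.

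Counts were rounded and fitted with edgeR 4.0.16 (R 4.3.3; TMM, filterByExpr with a minimum count of 10 and total of 15, quasi-likelihood test, Benjamini-Hochberg adjustment) over the 4 groups of each experiment, with 15948 genes tested at 24 h and 16074 at 72 h. The difference between experiments used 1 fit of all 28 libraries with 16672 genes. Intervals at 95% use the SE. Positions and exon lengths are from GENCODE 29. Named genes were the 7 factors, list genes called in R1881 or inhibitor against vehicle, neighbouring genes and the 2 genes most like a called factor. A few genes named by this rule are not reported here. Alternatives were DESeq2 1.42.0, its size factors, library totals, no filter, unrounded counts, a replicate block, 1 fit of all libraries, and leaving out each library. Scripts were tested on simulated data. Intervals reflect the fitted spread between libraries.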

Additional observations from a re-analysis of the deposited data

Results flagged for a closer look

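The androgen effect differed between the experiments by a test of the difference itself for HOXB13 (72 h minus 24 h, log2 0.27, edgeR FDR = 5.17e-07), GRHL2 (0.23, edgeR FDR = 0.000201) and FOXA1 (0.14, edgeR FDR = 0.00437). Time, R1881 dose and experiment changed together, so they cannot be told apart. The androgen effect differed between cells with and without SNX631 for GATA2 (log2 0.27, edgeR FDR = 1.28e-06) and HOXB13 (0.20, edgeR FDR = 5.68e-05). No library stood apart in any of the 24 sets of 4 libraries examined for these factors, where chance would give 1.2. These sets are all from the 72 h experiment, and the groups of 3 libraries at 24 h were not examined in this way.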

How the results depend on the processing

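Over the 6 tested factors, 965 of 1008 values from fits without 1 library and 445 of 456 from other settings kept their direction and their side of the FDR limit. Values of HOXB13 and FOXP1 that came over the fold limit alone are counted among those kept. With library totals in place of TMM, 2 factors were called with R1881 at 24 h, HOXB13 joining GRHL2. The number called for the androgen effect with Senexin B ran from 1 to 2 over the fits without 1 library. Direction changed in some of these fits for values near 0: Senexin B with R1881 for HOXB13 (from -0.0353 to 0.00474) and GRHL2 (from -0.0238 to 0.0173), Senexin B against vehicle for FOXP1 (from -0.00554 to 0.13), the Senexin B interaction for FOXP1 (from -0.00245 to 0.136) and ONECUT2 (from -0.103 to 0.041), and the androgen effect at 72 h minus 24 h for FOXP1 (from -0.0229 to 0.0552) and ONECUT2 (from -0.00309 to 0.139). Library totals shifted the median of all genes by -0.0778 on the log2 scale for R1881 at 24 h, -0.102 at 72 h and -0.108 with SNX631. Under them FDR was no longer under 0.01 for GATA2 (0.0876) and GRHL2 (0.112) with Senexin B, ONECUT2 with R1881 at 24 h (0.152) and with SNX631 (0.178), HOXB13 for SNX631 with R1881 (0.051) and FOXA1 at 72 h minus 24 h (0.109). HOXB13 then passed with Senexin B (-0.125) and for R1881 with SNX631 (-0.163). The androgen effect on ONECUT2 with Senexin B did not pass with library totals (0.145), the DESeq2 Wald test (0.213) and 1 fit of all libraries (0.221). The cause was not tested.

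Deviations of same-numbered libraries were weakly correlated at most, between -0.0127 and 0.0902 in the 24 h experiment and between -0.0577 and 0.081 in the 72 h experiment. The medians were 0.0152 and -0.0141, against -0.0049 and 0.00208 for libraries with different numbers. At 24 h 7 of 12 libraries correlated best with their own number, and at 72 h 1 of 16. Some pairing at 24 h therefore remains possible. With the replicate block, 3022 genes instead of 3030 were called with R1881 at 24 h and 3173 instead of 3185 at 72 h, and no factor of the 6 changed its side of a limit, whereas KLF4 and GRHL1 lost their calls with Senexin B.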
